A study of Bos taurus with 6 samples.

Results

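The genes described are INPP5E (ENSBTAG00000001354), SDCBP2 (ENSBTAG00000021321), PLCB1 (ENSBTAG00000008338) and PRKG1 (ENSBTAG00000018404), 4 genes of phosphoinositide and cyclic GMP (cGMP) signaling in the mammary gland of lactating heifers. INPP5E and SDCBP2 were taken because the study lists them as upregulated after in utero heat stress in its heifers. PLCB1 and PRKG1 were taken because it lists them as differentially methylated in the same tissue. The study describes a further in utero cooled heifer that was not analysed here. Whether its list included that heifer is not known, so the comparison here may not repeat the study's own. The 4 genes are among 24579 genes with a read count, and all 4 were among the 14724 genes with enough counts to be tested. Because INPP5E and SDCBP2 were picked for their change in these animals, their change is given as a description and is not independent support for the list they came from. The deposited counts hold no methylation values.

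Phosphoinositides are membrane lipids that carry phosphates on an inositol ring, and cells use kinases and phosphatases to switch one form into another. Phospholipase C beta, when a G protein-coupled receptor is engaged, cleaves the bisphosphate form into inositol trisphosphate, which releases calcium from internal stores, and diacylglycerol, which activates protein kinase C. The cGMP-dependent kinase dampens that calcium release, so both arms bear on calcium, which the mammary gland needs for milk secretion and for the contraction of its myoepithelium and vessels.

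RNA was sequenced from mammary biopsies of 6 Holstein heifers on day 21 of the first lactation. The dams of the 3 in utero heat stressed heifers (IUHT-H, labelled HT; heifers 9196, 9203 and 9204) had shade as their only relief during late gestation, and the dams of the 3 in utero cooled heifers (IUCL-H, labelled CL; heifers 9202, 9214 and 9223) had fans and soakers as well as shade. All 6 heifers were kept alike from birth and none was itself given a treatment, so the groups differ in what the dam experienced. Each value is 1 biopsy of whole tissue, in which fewer cells of a type and less RNA per cell cannot be told apart.

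Total counts ran from 75754791 to 84969285 in IUHT-H and from 91696849 to 101361294 in IUCL-H. The 10 most abundant genes took 65.1% to 74.8% of a heifer's counts. Expression is given as CPM (the count scaled to a common library size) after TMM normalization, which allows for such dominant genes, and 3 counts correspond to 0.0298 to 0.0435 CPM, a limit for counting error only. The quasi-likelihood test of edgeR was run over all genes, at the study's cut-off of an unadjusted P of 0.01. Of all genes tested, 0.428% passed the cut-off in either direction and 0.285% passed as higher in IUHT-H. After Benjamini-Hochberg adjustment 0 genes had an adjusted p below 0.05 in this test, against 374 genes at an unadjusted p below 0.05, 9 genes with an adjusted p below 0.05 in edgeR's exact test, 11 in its likelihood ratio test and 16 in DESeq2.

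INPP5E encodes inositol polyphosphate-5-phosphatase E, which removes the 5-phosphate of phosphoinositides and is best known for its place in the primary cilium. It was counted 292, 326 and 183 times in IUHT-H 9196, 9203 and 9204, and 188, 162 and 145 times in IUCL-H 9202, 9214 and 9223. After scaling this was 3.24, 3.47 and 2.65 CPM in IUHT-H, beside 1.87, 1.79 and 1.65 CPM in IUCL-H. The groups did not overlap, and the lowest IUHT-H value was 1.42 times the highest IUCL-H value. Such a separation with IUHT-H above was found in 3.14% of all genes tested. With scaling by library size alone, the lowest IUHT-H value (9204, 2.15 CPM) lay only just above the highest IUCL-H value (9202, 2.05 CPM). INPP5E was the only member past the cut-off, 1 of 4 beside 0.285% of all genes tested as higher in IUHT-H, and it had been chosen for that change. IUHT-H averaged 3.12 ± 0.423 CPM against 1.77 ± 0.11 CPM for IUCL-H (SD, n = 3 each), a log2 fold change of 0.82 (SE 0.19, 95% interval 0.39 to 1.25, or 1.31- to 2.37-fold). With its standard error a change of 0.62 or more passed the cut-off, and it ranked 13 of all genes by P. After adjustment over all genes it did not pass (edgeR's quasi-likelihood test, adjusted p = 0.999), and the adjusted p over the alternatives ranged from 0.0859 (DESeq2) to 1. The exact two-sided permutation test of its log2 CPM values gave p = 0.1, the smallest that 3 heifers against 3 allow and the value that groups without overlap always give. INPP5E no longer passed the cut-off when IUCL-H 9223, IUHT-H 9196 or IUHT-H 9203 was left out of the fit (log2 fold changes of 0.77, 0.79 and 0.73), and when libraries were scaled by size alone (0.97).

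SDCBP2 encodes syntenin-2, a scaffold protein whose PDZ domains bind phosphatidylinositol bisphosphate in membranes. It was close to the low end of what was measured. Its counts were 36, 31 and 20 in IUHT-H 9196, 9203 and 9204, and 21, 10 and 10 in IUCL-H 9202, 9214 and 9223. These were 0.4, 0.33 and 0.29 CPM in IUHT-H, against 0.209, 0.111 and 0.114 CPM in IUCL-H. All 3 IUHT-H values lay above all 3 IUCL-H values, by at least 1.39 times, although the raw count of IUHT-H 9204 was 1 read below that of IUCL-H 9202. SDCBP2 had been chosen as higher in IUHT-H, and 3.14% of all genes tested separated in this way. With scaling by library size alone, IUHT-H 9204 (0.235 CPM) lay only just above IUCL-H 9202 (0.229 CPM). The means were 0.34 ± 0.0555 and 0.145 ± 0.0557 CPM (SD, n = 3 each), and the log2 fold change was 1.22 (SE 0.4, 95% interval 0.29 to 2.15, or 1.22- to 4.44-fold). SDCBP2 did not pass the cut-off, which at its standard error took a change of 1.35, and it ranked 96 of all genes by P (edgeR's quasi-likelihood test, adjusted p = 0.999, and 0.588 to 1 over the alternatives). The exact permutation test gave p = 0.1, again the smallest possible. SDCBP2 passed the cut-off in edgeR's exact and likelihood ratio tests, when only genes with 10 or more counts in every heifer were kept, and when IUCL-H 9202 was left out, where the log2 fold change was 1.59.

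**Figure D1:**
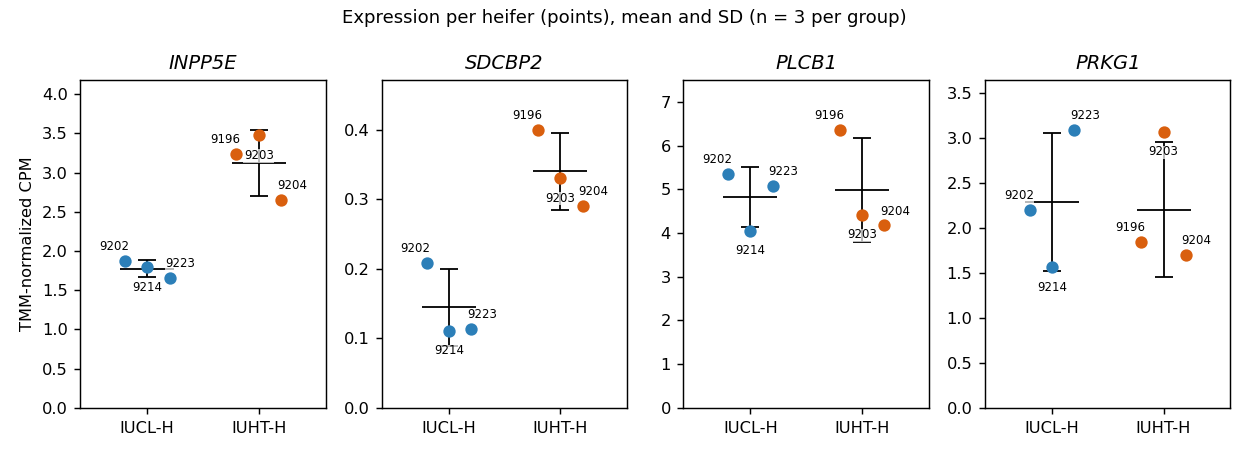
TMM-normalized CPM of the 4 genes, each on its own linear axis from 0, with 1 point per heifer, its number beside it, and the mean and SD of 3 heifers per group in black. The IUHT-H points of INPP5E (2.65 to 3.47 CPM) and SDCBP2 (0.29 to 0.4 CPM) lie above every IUCL-H point, whereas the groups overlap for PLCB1 and PRKG1.

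PLCB1 encodes phospholipase C beta 1, the enzyme that makes inositol trisphosphate and diacylglycerol, and it had the most counts of the 4 genes. It was counted 573, 415 and 288 times in IUHT-H 9196, 9203 and 9204, and 538, 366 and 446 times in IUCL-H 9202, 9214 and 9223. In CPM the IUHT-H values were 6.36, 4.42 and 4.18 and the IUCL-H values 5.35, 4.05 and 5.08. The highest value and the second lowest value of the 6 were both in IUHT-H, so that the IUHT-H range took in all but the lowest IUCL-H value. IUHT-H averaged 4.99 ± 1.2 CPM against 4.83 ± 0.684 CPM for IUCL-H (SD, n = 3 each). The log2 fold change was 0.05 (SE 0.21), where 0.69 would have passed the cut-off (edgeR's quasi-likelihood test, adjusted p = 0.999, exact permutation p = 0.9), and its 95% interval ran from -0.43 to 0.52, or from 0.744- to 1.43-fold.

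PRKG1 encodes cGMP-dependent protein kinase 1, the receptor kinase through which cGMP lowers calcium release in smooth muscle and other cells. Its counts were 166, 288 and 117 in IUHT-H 9196, 9203 and 9204, and 221, 141 and 271 in IUCL-H 9202, 9214 and 9223. In CPM these were 1.84, 3.07 and 1.7 in IUHT-H and 2.2, 1.56 and 3.09 in IUCL-H. Each group held 1 heifer near 3.1 CPM (9203 and 9223), and the other 4 heifers lay between 1.56 and 2.2 CPM. Means of 2.2 ± 0.753 CPM for IUHT-H and 2.28 ± 0.767 CPM for IUCL-H (SD, n = 3 each) gave a log2 fold change of -0.05 (SE 0.32), where 1.09 in either direction would have passed (edgeR's quasi-likelihood test, adjusted p = 0.999, exact permutation p = 0.9). The 95% interval was the wider of the pair of methylated genes, from -0.8 to 0.7, or from 0.575- to 1.62-fold.

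The direction of the small differences in PLCB1 and PRKG1 depended on single heifers. Without IUHT-H 9196 the log2 fold change of PLCB1 was -0.17, and without IUCL-H 9214 it was -0.06. That of PRKG1 was 0.23 without IUCL-H 9223, 0.06 without IUHT-H 9196 and 0.1 without IUHT-H 9204, and it was 0.12 with scaling by library size alone. Neither gene passed the cut-off in any of the 6 fits that leave out a heifer. By contrast, INPP5E stayed between 0.73 and 0.92 and SDCBP2 between 1.06 and 1.59 on the log2 scale with 1 heifer left out at a time, a direction that the choice of these genes had fixed.

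**Figure D2:**
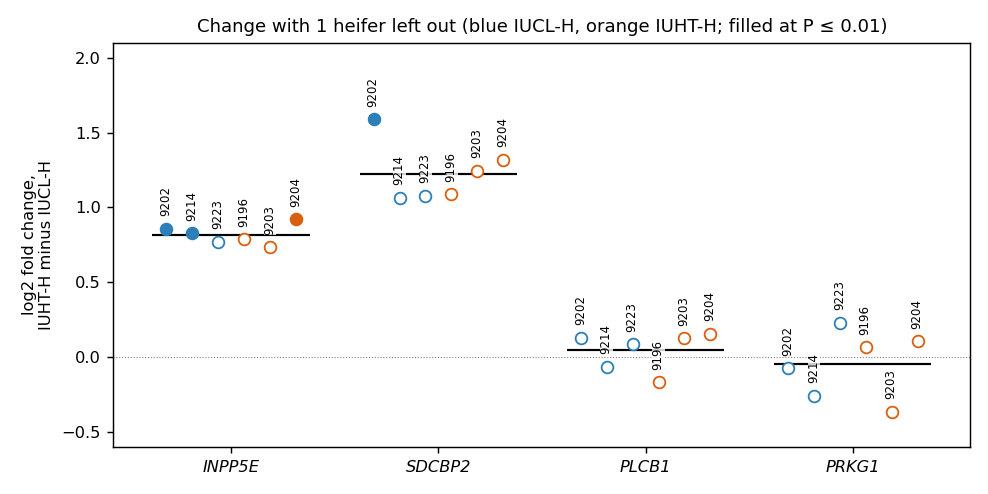
Log2 fold change (IUHT-H minus IUCL-H) of each gene with 1 heifer left out (points, labelled by the heifer, filled where the cut-off was passed) and with all 6 heifers (black line). INPP5E passed the cut-off in 3 of 6 such fits and SDCBP2 in 1, whereas the points of PLCB1 and PRKG1 fall on both sides of 0.

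The spread between heifers of the same group was set beside the error of counting. The coefficient of variation (CV, the SD as a percentage of the mean) of INPP5E was 13.5% in IUHT-H and 6.19% in IUCL-H, and counting error alone gives 6.31% and 7.83% at its counts, so that the spread was 2.14 and 0.79 times the counting error. For SDCBP2 the CV was 16.3% in IUHT-H and 38.5% in IUCL-H, beside 19.2% and 28.7% from counting, so that the spread was 0.852 and 1.34 times the counting error. The counting error falls as counts rise, so these ratios depend on a gene's count and are not a ranking of the genes.

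The CV of PLCB1 was 24% in IUHT-H and 14.2% in IUCL-H, or 4.76 and 2.97 times the counting error. That of PRKG1 was 34.2% and 33.6%, or 4.41 and 4.71 times the counting error. On the log2 scale, where counting error and differences between animals are both included, the SD within groups was 0.155 for INPP5E, 0.353 for SDCBP2, 0.276 for PLCB1 and 0.473 for PRKG1. A smaller SD was found in 26.8%, 72%, 59.7% and 83.3% of all genes tested, respectively. With 3 heifers per group these SDs are themselves imprecise, and the difference in spread between genes was not tested. INPP5E and SDCBP2 also came from a list made with a P cut-off in heifers of these groups. Such a list favours genes with a small spread, so their SDs are not independent of the choice, unlike those of PLCB1 and PRKG1. The SD of INPP5E was 0.0799 without IUHT-H 9204, that of SDCBP2 0.153 without IUCL-H 9202 and that of PLCB1 0.152 without IUHT-H 9196. The order of the genes also depended on single heifers. SDCBP2 was level with INPP5E (0.154) without IUCL-H 9202, PLCB1 was below INPP5E (0.201) without IUHT-H 9196, and SDCBP2 was above PRKG1 without IUCL-H 9214 (0.409 and 0.406), IUCL-H 9223 (0.425 and 0.404) or IUHT-H 9203 (0.384 and 0.343). With scaling by library size alone the SDs were 0.394 for INPP5E, 0.543 for SDCBP2, 0.476 for PLCB1 and 0.61 for PRKG1.

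**Figure D3:**
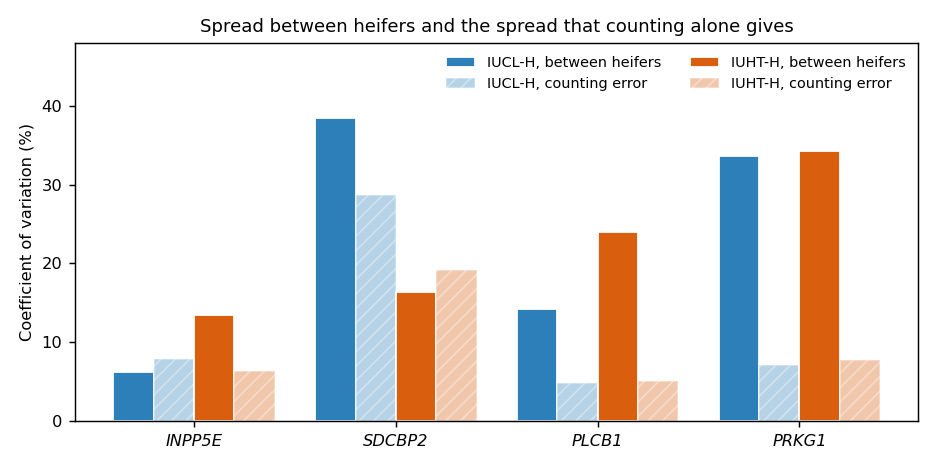
Coefficient of variation (percent, linear axis from 0) between the 3 heifers of each group (solid bars) and the coefficient of variation that counting error alone gives at the same counts (hatched bars). For PLCB1 and PRKG1 the solid bars stand 2.97 to 4.76 times as high as the hatched ones, for INPP5E 2.14 and 0.79 times and for SDCBP2 0.852 and 1.34 times (IUHT-H and IUCL-H).

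The spread and the counts together set the change that 3 heifers against 3 could detect, taken as the log2 fold change that edgeR's test would pass at the cut-off in 80% of such experiments. For INPP5E this size was 0.8, a 1.75-fold increase, and the change measured, 0.82, was of the same size. For PLCB1 it was 0.89, a 1.86-fold increase or a decrease to 0.539 of the IUCL-H level. With scaling by library size alone the detectable sizes of INPP5E and PLCB1 were 1.35 and 1.31. With the spread of each gene alone, not moderated over all genes, they were 0.74 and 1.33, so that the closeness of these genes depends on the moderated spread. The detectable sizes of INPP5E and SDCBP2 come from the heifers in which these genes were chosen and are not independent of that choice. A doubling would have been detected in 94.9% of experiments for INPP5E and in 89.2% for PLCB1.

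The comparison was much less sensitive for the other 2 genes. For PRKG1 the detectable log2 fold change was 1.41, a 2.66-fold increase or a decrease to 0.376 of the IUCL-H level, and a doubling would have been detected in 45.1% of experiments. With the spread of PRKG1 alone, its detectable size was 2.27. For SDCBP2 the detectable log2 fold change was 1.75, a 3.36-fold increase, and a doubling would have been detected in 27.8% of experiments. The change measured for SDCBP2 was 1.22 and lay below its own detectable size. A smaller detectable size was found in 48.3% of all genes tested for INPP5E, 55.7% for PLCB1, 77.8% for PRKG1 and 85.9% for SDCBP2.

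**Figure D4:**
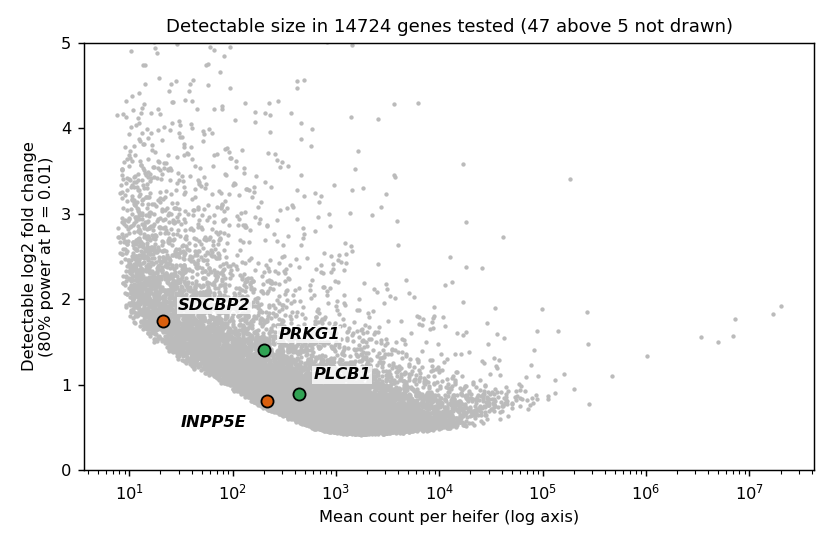
Detectable log2 fold change (80% power at the cut-off, linear axis from 0) against the mean count per heifer (log axis) for the genes tested, with the 4 members outlined in black. PRKG1 lies above INPP5E at a similar count, and SDCBP2 has the lowest count and the largest detectable size of the 4 members.

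A change as large as that of INPP5E (0.82 on the log2 scale) lies outside the 95% interval of PLCB1, which ends at 0.52, and outside that of PRKG1, which ends at 0.7. The 0.82 serves only as a size to compare with, because INPP5E was chosen for its change in these heifers. Its own interval, 0.39 to 1.25, overlaps those of PLCB1 and PRKG1, and the difference between the genes was not tested. Changes of up to 1.43-fold upward or to 0.744 of the IUCL-H level remain inside the interval of PLCB1, and changes of up to 1.62-fold upward or to 0.575 of the IUCL-H level inside that of PRKG1. In 14 alternative fits with an interval, the change of INPP5E in the same fit came inside the interval of PLCB1 in 0, although with library size alone the upper end of PLCB1 (0.91) lay above the 0.82 of the comparison with all heifers. It came inside that of PRKG1 in 5, namely without IUCL-H 9223 (upper end 1.02), without IUHT-H 9196 (0.94), without IUHT-H 9204 (0.93), with library size alone (1.02) and with the spread of the gene alone (1.02). For PRKG1 the statement thus depends on the heifers and the scaling. The test therefore does not show that PLCB1 and PRKG1 were the same in both groups. Had PLCB1 changed by as much as INPP5E, the test would have passed it in 71.5% of experiments, and for PRKG1 the figure was 28.8%. Both figures take the moderated spread after TMM scaling as known. Detectable sizes were larger with the spread of the gene alone (1.33 for PLCB1, 2.27 for PRKG1). They were also larger with library size alone (1.31 and 1.65), and the figures would be lower there.

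Ratios of counts within a heifer need no scaling between libraries. There were 0.51, 0.786 and 0.635 INPP5E counts per PLCB1 count in IUHT-H 9196, 9203 and 9204, and 0.349, 0.443 and 0.325 in IUCL-H 9202, 9214 and 9223. The ratio of SDCBP2 to PLCB1 counts was 0.0628, 0.0747 and 0.0694 in IUHT-H and 0.039, 0.0273 and 0.0224 in IUCL-H. For both ratios every IUHT-H heifer lay above every IUCL-H heifer. INPP5E and SDCBP2 were chosen as higher in these IUHT-H heifers, so this separation is not independent support. The share of all genes whose ratio to PLCB1 separates the groups was not computed. The ratio of PRKG1 to PLCB1 counts was 0.29, 0.694 and 0.406 in IUHT-H and 0.411, 0.385 and 0.608 in IUCL-H, and the groups overlapped.

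Heifer 9204 had the lowest value of its group for all 4 genes, the highest share of counts in the 10 most abundant genes (74.8%) and the lowest TMM factor (0.812). Within IUCL-H, heifer 9202 had the highest value for INPP5E, SDCBP2 and PLCB1, and the lowest such share of that group (67.6%). The part of this share in the results was not tested. With the 10 most abundant genes left out and TMM applied again, INPP5E had 10.7, 11.5 and 8.78 CPM in IUHT-H, beside 6.19, 5.94 and 5.47 CPM in IUCL-H. These values kept nearly the same proportions between heifers as those with all genes, so they are no separate check. Left out of the library sizes with no TMM factor, they gave INPP5E, a gene chosen for its change, 11.3, 11.5 and 8.52 CPM in IUHT-H. The IUCL-H values were then 6.32, 5.8 and 5.36 CPM, and the groups did not overlap.

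The wider pathway could be read in part, because the counts are listed by Ensembl identifier and names come from the study's gene lists. Of 156 genes of phosphoinositide and cGMP signaling, 10 had a name in the counts, and they were named because the study lists them as differentially methylated or differentially expressed in one of its tissues. Of these 10, 1 passed as higher in IUHT-H (INPP5E, chosen for that change) and 0 as lower, beside 0.285% and 0.143% of all genes tested. The signs were even, with 5 higher and 5 lower, and the median log2 fold change was 0.01 beside 0 over all genes tested. The groups did not overlap for 3 of the 10 (INPP5E, SDCBP2 and PIK3C2B), beside 6.06% of all genes tested. The study lists these 3 as differentially expressed in heifers of these groups, so this share follows from how they got a name and says nothing about the pathway.

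Among the kinases that build phosphoinositides, PI4KA, which makes phosphatidylinositol 4-phosphate at the plasma membrane, is also listed as differentially methylated. IUHT-H averaged 70.9 ± 3.36 CPM and IUCL-H 80.6 ± 15.3 CPM (SD, n = 3 each), and the log2 fold change of -0.18 (SE 0.16) did not pass. PIK3C2B, a class II phosphoinositide 3-kinase that the study lists as differentially expressed, had 10.7, 10.9 and 8.58 CPM in IUHT-H 9196, 9203 and 9204, and 16, 16.2 and 11.7 CPM in IUCL-H 9202, 9214 and 9223. All 3 IUHT-H values were the lower ones, as in 2.92% of all genes tested, and its log2 fold change of -0.54 (SE 0.16) fell short of the 0.55 that the cut-off took. PIK3C2B passed without IUCL-H 9223 (-0.67), with every gene of at least 1 count kept, and in DESeq2 and the exact and likelihood ratio tests. OCRL, a phosphatase that like INPP5E removes the 5-phosphate and that is listed as differentially methylated, averaged 20.1 ± 1.98 CPM in IUHT-H, beside 24.8 ± 5.66 CPM in IUCL-H (SD, n = 3 each). Its log2 fold change of -0.3 (SE 0.18) lay on the other side of 0 from that of INPP5E, without passing the test.

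Downstream of PLCB1, PRKCA, a protein kinase C that diacylglycerol activates, had a log2 fold change of 0.09 (SE 0.12), which did not pass, and the smallest detectable size of the 10 genes, 0.5. PDE5A, the phosphodiesterase that breaks down the cGMP PRKG1 responds to, is listed as differentially methylated too. It had 2.54, 2.28 and 1.73 CPM in IUHT-H 9196, 9203 and 9204, and 1.82, 1.33 and 1.84 CPM in IUCL-H 9202, 9214 and 9223. The lowest IUHT-H heifer lay among the IUCL-H heifers, and the log2 fold change of 0.39 (SE 0.24) did not pass. ARL3, a small GTPase that releases INPP5E into the cilium, had a log2 fold change of -0.02 (SE 0.23) that did not pass either and whose sign changed without IUCL-H 9202, IUCL-H 9214 or IUHT-H 9204 and with scaling by library size alone. The adjusted p of all 10 genes was 0.999 in edgeR's quasi-likelihood test.

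**Figure D5:**
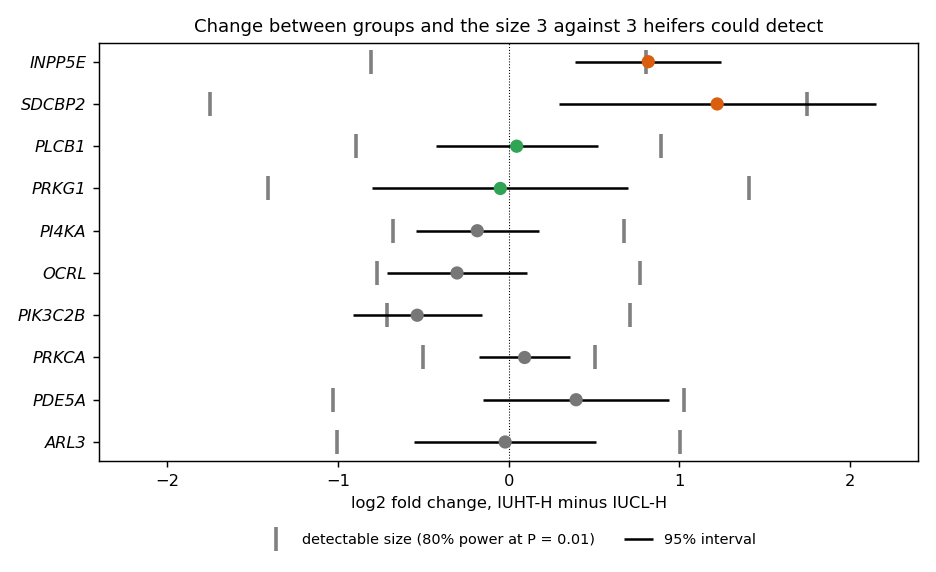
Log2 fold change (IUHT-H minus IUCL-H, points) with its 95% interval (black lines) and the detectable size in each direction (grey ticks) for the 4 members and the 6 other pathway genes with a name. The interval of INPP5E starts at 0.39 and its point sits on its detectable size, whereas the points of PLCB1 and PRKG1 lie near 0 inside ticks at 0.89 and 1.41.

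PLCB1 and PRKG1 belong to 135 genes that the study lists as differentially methylated in the heifer mammary gland, of which 81 were tested. The median detectable log2 fold change of those 81 genes was 0.93, beside 0.82 over all genes tested, and 42% of the 81 had a detectable size above 1, beside 37.6% of all genes. PLCB1 lay near the middle of this list and PRKG1, at 1.41, just above its upper quartile of 1.37. The median size of the change was 0.14 on the log2 scale beside 0.13 over all genes, and 1 of the 81 genes passed the cut-off, or 1.23% beside 0.428% of all genes.

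Over the 6 heifers, PLCB1 and PRKG1 showed no correlation that passed the test (Pearson's r = 0.145, exact permutation p = 0.789; Spearman's rho = 0.486, exact permutation p = 0.356; r = 0.337 without the 2 heifers farthest from the median of PLCB1, and r = 0.583 with scaling by library size alone). The adjusted p over the 10 pairs of methylated pathway genes was 0.91. In 1 of the 10 pairs, that of PI4KA and OCRL, Pearson's r passed (0.977, adjusted exact permutation p = 0.0278; 0.99 without 2 heifers), but Spearman's rho did not (0.943, adjusted exact permutation p = 0.167). Correlations were computed over both groups, since 3 heifers are too few for a value within a group.

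Among 211 named genes with at least 1 CPM, the genes most like PLCB1 over the 6 heifers were CIITA (r = 0.906), LAMA4 (0.9) and RCSD1 (0.897), and the genes most like PRKG1 were TFF3 (0.856), TRIM28 (0.842) and ABTB2 (0.786). For INPP5E they were MOB3B (0.941), PTGDS (0.936) and SFRP1 (0.926). For SDCBP2, against 212 genes, they were LOC537017 (0.993), NFKBIA (0.976) and SERPING1 (0.976). These values are descriptions over 6 heifers of both groups, and all genes share the same libraries and scaling. The candidates have a name only because they are on the study's lists. All those named here for INPP5E and SDCBP2 are listed as differentially expressed in heifers of these groups, as INPP5E and SDCBP2 are. Their r values therefore include the group difference for which they were listed. Of all genes at that level, 156 had an r above 0.9 with PLCB1, 124 with SDCBP2, 50 with INPP5E and 18 with PRKG1.

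Some limits touch what the counts of a gene can hold. In the annotation of assembly ARS-UCD2.0, PRKG1 is overlapped by CSTF2T, a protein coding gene, and by LOC132343934, LOC112444473, TRNAW-CCA and TRNAC-ACA. PLCB1 is overlapped by the microRNA gene MIR2285M-1 and by TRNAW-CCA. These overlaps are between whole genes from start to end, and whether exons overlap was not examined. Whether the reads were counted by strand is not given in the sources used here. It is therefore not known whether reads of overlapping genes were kept apart. INPP5E lies between PMPCA and SEC16A, and SDCBP2 between FKBP1A and SNPH. PRKG1 lies between DKK1 and A1CF, and PLCB1 between LOC112449369 and LOC112449370. None of these neighbours, nor the close relatives SDCBP, INPP5B, INPP5J, INPP5K, PLCB2, PLCB3, PLCB4 and PRKG2, has a name in the counts, and they were not analysed here. Gene lengths were not used here, so the levels of the 4 genes are not ranked against each other.

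Of 59 marker genes chosen for epithelium, myoepithelium, fibroblasts, pericytes, endothelium, leukocytes and adipocytes, 1 had a name in the counts. It was NOTCH3, from the list for pericytes, and 1 gene alone is no measure of a cell type. The labelled tissue was therefore not checked against its defining markers. NOTCH3 had 41, 38 and 30.7 CPM in IUHT-H 9196, 9203 and 9204 and 35.6, 33.3 and 33.7 CPM in IUCL-H 9202, 9214 and 9223, with heifer 9204 again the lowest of its group. The part of cell composition in the values of PRKG1 and the other members was not tested.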

How the data were processed

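Counts came from RNA sequencing of 6 mammary biopsies, 1 per heifer. The authors mapped the reads with TopHat2 (version 2.0.13, per the submitters' processing notes, which also name FastQC and HTSeq) and deposited raw read counts per gene for every heifer, neither normalized nor filtered. The notes name genome build UMD3.1 and the study's methods bosTau7, and no coordinates are given. Heifers were grouped by the treatment label, and a further IUCL-H described in the study was not analysed here.

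From these counts, genes were kept with filterByExpr of edgeR (version 4.0.16, R version 4.3.3), which retained 14724 of the 19443 genes with at least 1 count, and scaled by TMM. IUHT-H and IUCL-H were compared, two-sided and without covariates, by the quasi-likelihood test of edgeR (functions glmQLFit and glmQLFTest, the older method of that version). Benjamini-Hochberg adjustment of P-values ran over all genes tested. Standard errors came from the fitted model, intervals of 95% from the standard error and moderated degrees of freedom (7.97), and detectable sizes from the noncentral t distribution with power 0.8. Correlations and permutation tests used log2 CPM with a prior count of 2. The counting CV is that of a Poisson count. Scripts were tested on simulated data.

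The members, the gene lists and the tests were chosen with earlier results of these data known. Named genes were the 4 members, other pathway genes on the study's methylation or expression lists, the up to 3 genes of smallest P in each pathway list, neighbours and close relatives of the members, and the 3 named genes most correlated with each member. Names came from the study's lists, which pair 365 identifiers of the count tables with a symbol. No identifier matched the RefSeq table (ARS-UCD2.0), which was used by symbol for neighbours only.

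Alternatives were the exact test, the likelihood ratio test, DESeq2 (version 1.42.0), RLE size factors, a robust fit, library size without a factor, 3 other filters on low counts, leaving out the 10 most abundant genes or each heifer in turn, and, added after the data were seen, the newer quasi-likelihood method of edgeR. For detectable sizes they were a P of 0.05, a power of 0.9 and the spread of the gene alone.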

Additional observations from a re-analysis of the deposited data

How the results depend on the processing

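PLCB1 and PRKG1 passed the cut-off under no alternative run, whereas their sign turned under some. The log2 fold change of INPP5E was 0.97 with scaling by library size only, no longer past the cut-off, and that of SDCBP2 passed it at 1.22 in edgeR's exact and likelihood ratio tests and at 1.22 with 10 or more counts in every heifer. SDCBP2 was removed by the filter on genes above 1 CPM in 3 heifers and has no value there. With library size only, PRKG1 turned to 0.12 and ARL3 to 0.12, and the median of all genes moved to 0.13. Relative to that median INPP5E was at 0.84, SDCBP2 at 1.21, PLCB1 at 0.06 and PRKG1 at -0.02. With 1 heifer left out at a time, log2 fold changes ranged from 0.73 to 0.92 for INPP5E (past the cut-off in 3 of 6), from 1.06 to 1.59 for SDCBP2 (1 of 6), from -0.17 to 0.16 for PLCB1 and from -0.37 to 0.23 for PRKG1 (0 of 6 each). PLCB1 turned negative without IUCL-H 9214 (-0.06) and without IUHT-H 9196 (-0.17), and PRKG1 positive without IUCL-H 9223 (0.23), IUHT-H 9196 (0.06) and IUHT-H 9204 (0.1). ARL3 turned positive without IUCL-H 9202 (0.14), IUCL-H 9214 (0.03) and IUHT-H 9204 (0.1), within a range of -0.21 to 0.14.

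The number of all genes past the cut-off was 63, and 108 in the exact test, 112 in the likelihood ratio test and 124 in DESeq2, with 38 (without IUCL-H 9214) to 246 (without IUCL-H 9202) when a heifer was left out, and 225 without IUHT-H 9204. With library size only 81.8% of 44 such genes were higher in IUHT-H, beside 66.7% of 63 in the main comparison, with higher calls falling from 42 to 36 and lower calls from 21 to 8. Without IUCL-H 9214, 44.7% were higher (17 higher and 21 lower). Of the 10 named pathway genes 1 passed, and 3 in the exact and likelihood ratio tests, 2 in DESeq2, 2 with every gene of at least 1 count, 2 with at least 10 counts in every heifer and 0 with library size only, with 0 to 2 when a heifer was left out. The detectable size was 0.59 for INPP5E and 1.29 for SDCBP2 at a P of 0.05, 1.35 for INPP5E, 2.2 for SDCBP2 and 1.31 for PLCB1 with library size only, and 1.33 for PLCB1 and 2.27 for PRKG1 with the spread of the gene alone. Leaving out a heifer gave 0.86 to 1.05 for INPP5E, 1.92 to 2.27 for SDCBP2, 0.85 to 1.11 for PLCB1 and 1.45 to 1.71 for PRKG1. Fits that leave out a heifer have fewer samples, and otherwise the cause of these shifts was not tested. No paired analysis was run, because the groups hold different heifers and the labels link no heifer of one group to a heifer of the other.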
